A study of Homo sapiens with 74 samples.

Results

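The RNA-seq libraries of HEL cells with DOT1L knockdown (KD) were compared with those of control HEL cells. These libraries were chosen by their labels alone, 2 control and 2 KD libraries, which are 4 of the 13 RNA-seq samples and 4 of all 74 samples of the series. HEL is an established human erythroleukaemia cell line that carries features of both red cell and platelet precursors. All 4 libraries come from HEL cells grown in the same serum-containing medium, and the groups differ, as far as the labels say, only in the knockdown. The labels give neither the knockdown method nor what the control cells received, and they do not say whether replicates were separate cultures, so p-values measure only the spread between these libraries, which may be technical. The design text of the series names the roles of the DOT1L complex in transcriptional regulation as its subject.

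DOT1L is the histone methyltransferase that places methyl groups on lysine 79 of histone H3, a mark found over the bodies of transcribed genes. It is recruited together with AF9, ENL and AF10, the products of MLLT3, MLLT1 and MLLT10, and its activity is raised by ubiquitin on histone H2B. In the blood system DOT1L is known for its role in leukaemias with MLL fusions and in the development of red cells.

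Total counts were 12151495 to 12811688 per library, and 15686 to 16055 of the 28131 listed genes had at least 1 count. CPM are counts scaled to a library total of 1000000 after TMM, a correction for library composition. A library with 0 counts of a gene is compatible with up to 3, which correspond to 0.238 to 0.244 CPM, and such floors and intervals cover counting error only. Of the listed genes, 12635 passed the filter on low counts and were tested. The libraries of a group were close. Pearson's r of log2 CPM across genes was 0.996 within each group and 0.979 between groups, as a description. Relative to counting noise, for which the ratio of chi-square to its degrees of freedom is 1, the ratio was 1.47 for the control pair, 1.32 for the KD pair and 29.4 for the first control against the first KD library.

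Defining markers were checked against the label. The erythroid genes GATA1 (306 and 303 CPM in the controls), KLF1 (153 and 150) and TFRC (1198 and 1197) were present, as were the megakaryocytic genes ITGA2B (1306 and 1270) and ITGB3 (921 and 927). MPO and ELANE of granulocytes were listed at 0 in all 4 libraries, and CD14 of monocytes stayed at or below 0.0799 CPM. LYZ, also a marker of these cells, went the other way in that it passed the filter on low counts and was tested. Of 26 markers of lymphocytes, fibroblasts, epithelial and endothelial cells, 9 were listed at 0 in every library, among them CD3E, MS4A1, COL1A2, DCN, LUM, KRT5 and KRT14. Their summed level was 92.3 and 85.2 CPM in the controls and 81.4 and 84.2 CPM in the KD, most of it from the endothelial genes KDR and TEK, which blood progenitors also express. TAF9, HMOX2 and EHMT2, genes in use in most cells, were also listed at 0 in all 4 libraries, so a gene at 0 in these counts is reported only as listed at 0.

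DOT1L itself (chromosome 19, 2164149 to 2232578, GRCh38, plus strand, 28 exon blocks) was at 97.5 and 87.4 CPM in the controls and at 29.1 and 30.0 CPM in the KD libraries. Both KD libraries lay below both controls, with a log2 fold change of -1.64 ± 0.06 (standard error, n = 2 per group) and an adjusted p of 2.22e-28. About the remaining DOT1L protein or its methyl mark these counts say nothing.

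The response was broad and mostly small. Of the 12635 genes tested, 6951 (55.0%) passed an adjusted p of 0.05 in edgeR's quasi-likelihood test, 3411 (27.0%) higher and 3540 (28.0%) lower in the KD libraries. Among called genes the absolute log2 fold change had a median of 0.38, and 64.7% of them changed by less than 0.5 on the log2 scale. A log2 fold change of at least 1 in size was reached by 738 of the called genes (5.84% of those tested), 426 higher (3.37%) and 312 lower (2.47%). With a minimum count of 50 in the filter, 179 were higher and 205 lower. At a size of 2 or more 80 genes were higher and 17 lower. The groups did not overlap in CPM for 9589 genes (75.9%). The number of calls depends on the tool: DESeq2 called 4561 genes, 2017 higher and 2544 lower, and upper-quartile scaling called 4412 higher and 2768 lower.

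**Figure D1:**
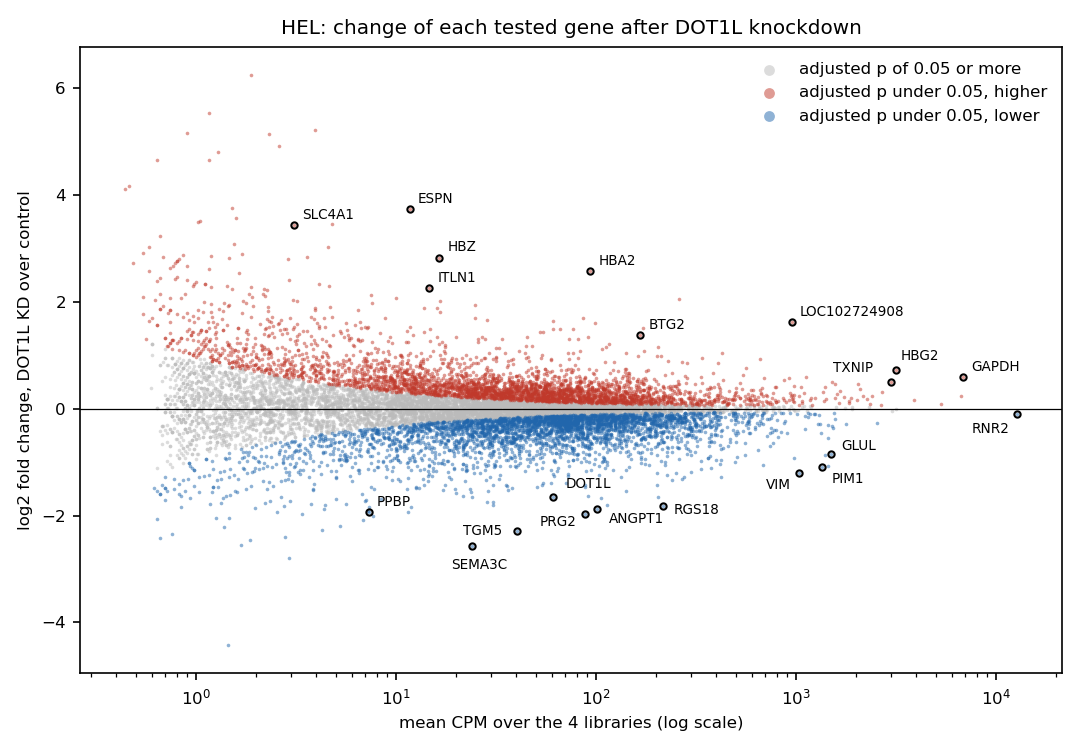
Each point is 1 of the 12635 tested genes, with its mean CPM over the 4 libraries on a log scale on the x axis and its log2 fold change, KD over control, on the y axis; red and blue points passed an adjusted p of 0.05. HBZ and HBA2 lie far above the cloud, SEMA3C, TGM5 and RGS18 far below it, and most coloured points lie within 1 log2 unit of 0.

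The largest increases among genes with a mean of at least 5 CPM were a mixture of red cell genes and genes best known from other tissues. ESPN, an actin-bundling protein of sensory hair cells, was at 1.52 and 1.75 CPM in the controls and 22.7 and 20.9 CPM in the KD libraries, the highest log2 fold change of this class at 3.73 ± 0.17 (adjusted p = 5.74e-25). The embryonic globin gene HBZ and the alpha globin gene HBA2 came next. ITLN1, a lectin that binds microbial sugars, went from 5.43 and 4.76 to 23.9 and 24.6 CPM (2.25 ± 0.13). SELENOP, the selenium carrier of plasma, went from 2.80 and 2.78 to 11.5 and 12.8 CPM (2.12 ± 0.18). SYP, a protein of synaptic vesicles, went from 3.51 and 4.21 to 15.3 and 17.0 CPM (2.06 ± 0.15). Other members were PLEKHA6 (2.02), STMN3 (1.98), a relative of the tubulin-binding stathmin, the mitochondrial carrier SFXN3 (1.93), the retinal gene RD3 (1.89) and AMPD3 (1.89), the AMP deaminase of red cells. All 12 had both KD libraries above both controls, which the choice of these genes required.

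The largest decreases held secreted factors, 2 platelet chemokines and regulators. SEMA3C, a secreted guidance factor that signals through neuropilins and plexins, was at 39.9 and 42.0 CPM in the controls and at 7.00 and 6.83 CPM in the KD libraries, a log2 fold change of -2.56 ± 0.11 (adjusted p = 3.26e-27). TGM5, a transglutaminase of skin, went from 68.0 and 65.3 to 13.7 and 13.6 CPM (-2.29 ± 0.08). PRG2, the major basic protein of eosinophil granules, went from 139 and 143 to 36.8 and 35.1 CPM (-1.97 ± 0.05). ANGPT1, the ligand of the TEK receptor, went from 155 and 162 to 45.6 and 41.1 CPM (-1.87 ± 0.05). These 4 were the most abundant of the 12 in the controls. MITF, a transcription factor of mast cells and pigment cells, fell from 18.5 and 17.9 to 4.29 and 5.21 CPM (-1.93 ± 0.14). The other members were the kinase gene PSKH2 (-2.19), the CBP-binding coactivator CITED1 (-2.08), the BMP and Wnt antagonist SOSTDC1 (-2.01), the platelet chemokines PPBP (-1.94) and PF4 (-1.85), the mTOR inhibitor DEPTOR (-1.91) and the DNA-binding protein ARID5B (-1.84).

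The promoters of the strongest members of both sets found in the promoter table used here (RefSeq, GRCh38.p14, 100 bases up to the start) are shown to compare genes that moved in opposite directions. Capitals mark TATAAA, the TATA box, or AGATAA and its complement TTATCT, the GATA motif, searched on the gene's strand and on both strands, respectively. The first 3 belong to genes that rose, at chr1:160885181-160885280, chr5:42811893-42811992 and chrX:49200194-49200293, all on the minus strand. Where RefSeq lists several starts, the one nearest the gene's 5′ end in the deposited table was taken.
ITLN1: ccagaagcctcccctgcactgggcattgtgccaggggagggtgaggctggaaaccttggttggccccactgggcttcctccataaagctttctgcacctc
SELENOP: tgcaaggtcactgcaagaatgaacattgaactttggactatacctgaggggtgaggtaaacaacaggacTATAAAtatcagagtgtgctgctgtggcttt
SYP: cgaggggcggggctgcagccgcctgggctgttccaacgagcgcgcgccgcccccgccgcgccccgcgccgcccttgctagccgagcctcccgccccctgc
The next 3 belong to genes that fell, at chr7:80922390-80922489, chr15:43266929-43267028 and chrX:72307158-72307257, all on the minus strand.
SEMA3C: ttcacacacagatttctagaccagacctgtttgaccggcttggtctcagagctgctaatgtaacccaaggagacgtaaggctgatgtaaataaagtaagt
TGM5: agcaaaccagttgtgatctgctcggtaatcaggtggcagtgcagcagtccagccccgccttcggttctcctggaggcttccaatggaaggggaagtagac
CITED1: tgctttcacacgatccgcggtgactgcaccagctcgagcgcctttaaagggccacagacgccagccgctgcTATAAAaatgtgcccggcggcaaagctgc
TATAAA stands 45 to 15 bases before the start in SELENOP, which rose, and in CITED1, which fell, and in 2.38% of the 35116 promoter windows of the table. AGATAA on either strand is in none of the printed stretches and in 10.3% of all 300-base windows, among them that of ITLN1. A match is a description of these letters, not a site in use. Only 10097 of the 12635 tested genes (79.9%) had a promoter in the table, under the 80% set as a minimum, so a comparison of promoter classes would be void and none is given.

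By amount of RNA the leading changes were in other genes. GAPDH, an enzyme of glycolysis, gained the most, from 5506 and 5430 CPM to 8207 and 8262 CPM (0.59 ± 0.03). HBG2, a fetal globin gene, followed with 2346 and 2431 CPM in the controls and 3626 and 4262 CPM in the KD. The glycolytic enzyme ENO1 (0.24), TXNIP (0.50), which binds thioredoxin and restrains glucose uptake, and the uncharacterised LOC102724908 (1.62) completed the 5 largest gains. The last went from 466 and 469 to 1460 and 1407 CPM. Among the losses PLEK, the major protein kinase C substrate of platelets, went from 1927 and 1974 CPM to 936 and 917 CPM (-1.07 ± 0.03). PIM1, a kinase gene induced by STAT5, went from 1823 and 1821 to 856 and 865 CPM (-1.08 ± 0.03). GLUL, which makes glutamine, and VIM, an intermediate filament protein, fell by 0.85 and 1.20 on the log2 scale. RNR2, the large ribosomal RNA of mitochondria, had 12931 and 13495 CPM in the controls and 12462 and 12240 CPM in the KD (-0.10 ± 0.03), a difference that was not called with upper-quartile scaling (adjusted p = 0.5) or without the second KD library (adjusted p = 0.12).

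Every tested globin gene rose. All 10 tested members of the globin list, 9 globin genes and the chaperone gene AHSP, were past the threshold and higher, where 27.0% of all tested genes were, and their median log2 fold change was 0.68 against 0.01 over all genes. Among the globin genes proper, the alpha-like HBZ, HBA2 and HBA1 had the largest log2 fold changes. HBZ, the embryonic zeta globin, was at 4.63 and 3.49 CPM in the controls and 29.1 and 28.5 CPM in the KD, a log2 fold change of 2.82 ± 0.13 (adjusted p = 9.25e-25). HBA2 went from 27.6 and 26.0 to 157 and 163 CPM (2.57 ± 0.06). HBA1 went from 93.9 and 83.7 to 260 and 248 CPM (1.51 ± 0.04). The neighbouring theta gene HBQ1 went from 9.83 and 8.18 to 12.4 and 15.7 CPM (0.64 ± 0.14). HBA1 and HBA2 are near-identical copies, as are HBG1 and HBG2, so the split of reads within each pair is uncertain. Summed, the alpha-like genes went from 136 and 122 CPM to 458 and 455 CPM. The beta-like genes started much higher and moved less. Their sum went from 4406 and 4519 CPM to 6357 and 7010 CPM. The embryonic HBE1 was at 1464 and 1493 CPM and then 1858 and 1854 CPM (0.33 ± 0.03), the smallest log2 fold change of the 10. HBG1 was at 558 and 558 CPM in the controls and 819 and 844 CPM in the KD (0.57 ± 0.03). The adult genes rose from low levels, HBB at 30.1 and 27.8 against 40.8 and 40.1 CPM and HBD at 7.51 and 7.86 against 12.7 and 10.2 CPM, a call lost for HBD without the first KD library (adjusted p = 0.0595). AHSP, the chaperone of free alpha globin, had 1 count in both controls together and 93 in the KD libraries, 4.37 and 3.09 CPM, a ratio of 93.9 with a 95% exact counting interval of 16.4 to 3749.

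Haem synthesis moved at single steps. Of 18 tested genes of haem synthesis, transport and breakdown, 11 were higher and 3 lower, where 27.0% of all tested genes were higher and 28.0% lower, with a median of 0.17. PPOX, which acts at the step before the last, went from 26.4 and 24.7 to 66.4 and 63.2 CPM (1.34 ± 0.07, adjusted p = 4.85e-23). UROD, which acts on uroporphyrinogen, went from 353 and 350 to 501 and 522 CPM (0.54 ± 0.03). FECH, which inserts the iron, went from 95.5 and 93.7 to 111 and 112 CPM (0.24 ± 0.05). The erythroid first enzyme ALAS2 differed by only 0.13 ± 0.03, from 308 and 306 to 336 and 338 CPM, and was not called with the exonic length trend removed (adjusted p = 0.071). Its housekeeping counterpart ALAS1 was lower (-0.20 ± 0.05). CPOX was also called lower (-0.07 ± 0.03, adjusted p = 0.0306), but its fold change was 0.00 with upper-quartile scaling. ALAD and UROS did not pass the test (0.14 ± 0.06 and -0.07 ± 0.06). The mitochondrial transporters ABCB6 (0.50) and ABCB10 (0.50) and the biliverdin reductase BLVRB (0.46) rose, and TMEM14C (-0.21), a porphyrin transporter, fell.

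Most iron uptake genes rose, and iron storage and sensing genes were mixed. Of 16 tested iron genes 8 were higher and 5 lower, against 27.0% and 28.0% of all tested genes, with a median of 0.07. Of the 6 uptake and import genes 5 rose and none fell, among them the transferrin receptor gene TFRC, at 1198 and 1197 CPM in the controls and 1588 and 1586 CPM in the KD (0.41 ± 0.03). The ferrireductase gene STEAP3 (0.46) and the erythroid iron importer SLC25A37 (0.14) were in this group, and TFR2 did not pass (0.01 ± 0.04). HFE, a regulator of iron uptake mutated in haemochromatosis, had the largest change of the list, from 0.240 and 0.318 to 1.27 and 1.14 CPM (2.07 ± 0.53). FTH1, the ferritin heavy chain, went from 412 and 426 to 712 and 701 CPM (0.75 ± 0.03). ACO1 (-0.57) and IREB2 (-0.19), the genes of both iron regulatory proteins, fell, as did the exporter gene SLC40A1 (-0.16).

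Of 28 tested red cell membrane genes 19 were higher and 7 lower, against 27.0% and 28.0% of all tested genes, with a median of 0.33. SLC4A1, the anion exchanger band 3, was at 0.479 and 0.556 CPM in the controls and 5.73 and 5.61 CPM in the KD libraries, a log2 fold change of 3.43 ± 0.32 (adjusted p = 1.48e-13) from 6 and 7 counts in the controls. TMOD1, which caps actin filaments of the skeleton, went from 26.8 and 30.0 to 76.7 and 77.1 CPM (1.44 ± 0.07). The glycophorin gene GYPB went from 49.4 and 47.8 to 141 and 156 CPM (1.61 ± 0.05). GYPB and GYPE are close copies, as are RHD and RHCE, and reads may be split between them. Among blood group genes RHD (0.98), RHCE (0.58), the water channel gene AQP1 (1.13) and ART4 (0.62) rose. XK, which pairs with the Kell protein, fell from 321 and 315 to 198 and 188 CPM (-0.72 ± 0.04). In the skeleton ANK1 did not pass the test, at 651 and 633 CPM in the controls and 621 and 622 CPM in the KD (-0.05 ± 0.03). The spectrin gene SPTB (0.27) rose.

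**Figure D2:**
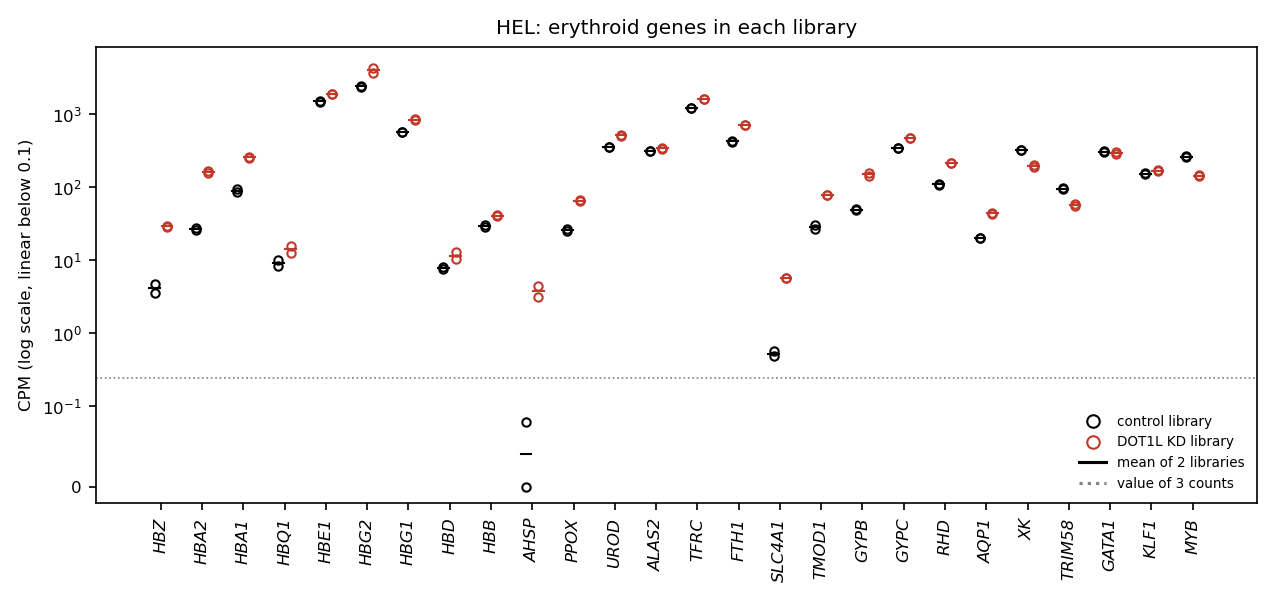
CPM (log scale, linear below 0.1) of 26 erythroid genes, with 1 circle per library, black for control and red for DOT1L KD, bars for the mean of 2 libraries and a dotted line at the value of 3 counts. The globin and glycophorin genes shown lie higher in the KD libraries, as do PPOX, UROD and ALAS2 of haem synthesis. XK, TRIM58 and MYB lie lower, and GATA1 and KLF1 nearly level.

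The genes of late maturation and of erythroid control did not move as 1 group. Of 13 maturation genes 5 were higher and 4 lower, against 27.0% and 28.0% of all tested genes. TRIM58, a ubiquitin ligase of late erythroblasts, was at 94.2 and 95.0 CPM and then 59.1 and 54.2 CPM (-0.74 ± 0.05), and FBXO7, also a ubiquitin ligase component, went from 181 and 187 to 104 and 108 CPM (-0.79 ± 0.04). The carbonic anhydrase gene CA1, abundant at 1334 and 1384 CPM, differed by -0.12 ± 0.03, a call lost with upper-quartile scaling (adjusted p = 0.16) and without the second KD library (adjusted p = 0.0665), and CA2 by 0.20 ± 0.04. Of 23 erythroid transcription factors and regulators 8 were higher and 8 lower, against 27.0% and 28.0% of all tested genes, with a median of -0.06 that was 0.02 with upper-quartile scaling. GATA1 did not pass the test, at 306 and 303 against 285 and 300 CPM (-0.06 ± 0.03, adjusted p = 0.144). KLF1, the activator of adult globin genes, differed by 0.13 ± 0.04, and that call was lost with DESeq2 (adjusted p = 0.083), without the second KD library (adjusted p = 0.093) and with the length trend removed (adjusted p = 0.53). GATA2, a factor of early progenitors, fell from 693 and 696 to 568 and 590 CPM (-0.26 ± 0.03). MYB, a factor of dividing progenitors, had the largest change of the list, from 257 and 262 to 139 and 146 CPM (-0.87 ± 0.04, adjusted p = 3.5e-26). LYL1 (0.44), TAL1 (0.22) and the fetal RNA-binding protein gene IGF2BP3 (0.63) rose. The fetal globin repressor BCL11A was low and did not pass (-0.28 ± 0.21), its counterpart ZBTB7A rose (0.46 ± 0.09), and LIN28B (-0.28) and IKZF1 (-0.41) fell.

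Megakaryocyte and platelet genes had the lowest median of all lists. All 39 tested members were past the threshold, 31 lower and 8 higher, with a median of -0.55, where 28.0% of all tested genes were lower. Their summed level went from 10940 and 10837 CPM to 8108 and 8132 CPM. Of 16 surface receptors 11 fell. ITGB3, the beta chain of the fibrinogen receptor, went from 921 and 927 to 457 and 435 CPM (-1.05 ± 0.03, adjusted p = 2.51e-34), whereas its partner chain ITGA2B differed little, at 1306 and 1270 against 1185 and 1225 CPM (-0.10 ± 0.03). That call was lost with upper-quartile scaling (adjusted p = 0.512) and without the first KD library (adjusted p = 0.142). SELP, the adhesion receptor of platelet granules, went from 148 and 154 to 70.8 and 69.3 CPM (-1.11 ± 0.05). Genes of the von Willebrand receptor were split. GP9 fell (-0.44 ± 0.04), GP5 fell (-0.73 ± 0.09) and GP1BA rose (0.53 ± 0.06), with GP1BB listed at 0. The ADP receptor gene P2RY1 (-0.76), the scavenger receptor gene CD36 (-0.55) and the collagen receptor chain ITGA2 (-0.86) fell as well.

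Among granule proteins 7 of 9 fell. PF4 went from 18.8 and 18.3 to 5.41 and 4.88 CPM (-1.85 ± 0.14) and its neighbour PPBP from 11.5 and 11.7 to 2.70 and 3.33 CPM (-1.94 ± 0.18). ANGPT1 is described above, and THBS1, thrombospondin, went from 121 and 125 to 60.4 and 49.4 CPM (-1.16 ± 0.06). Of the 14 genes of cytoskeleton, signalling and control 13 fell. RGS18, a brake on G protein signalling in platelets, went from 340 and 336 to 94.8 and 96.3 CPM (-1.82 ± 0.04, adjusted p = 1.07e-39). The guanylate cyclase subunit GUCY1B1 (-1.06), RAB27B (-0.69) of granule release and the platelet tubulin gene TUBB1 (-0.57) fell. Of the megakaryocytic factors, MEIS1 fell by 0.91, ETS1 by 0.28, RUNX1 by 0.24 and FLI1 by 0.17 on the log2 scale. Among the 8 that rose were CD9 (1.30), PECAM1 (0.85), F2RL3 (0.64), NBEAL2 (0.58), GP1BA, MMRN1 (0.42) and TGFB1 (0.12).

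**Figure D3:**
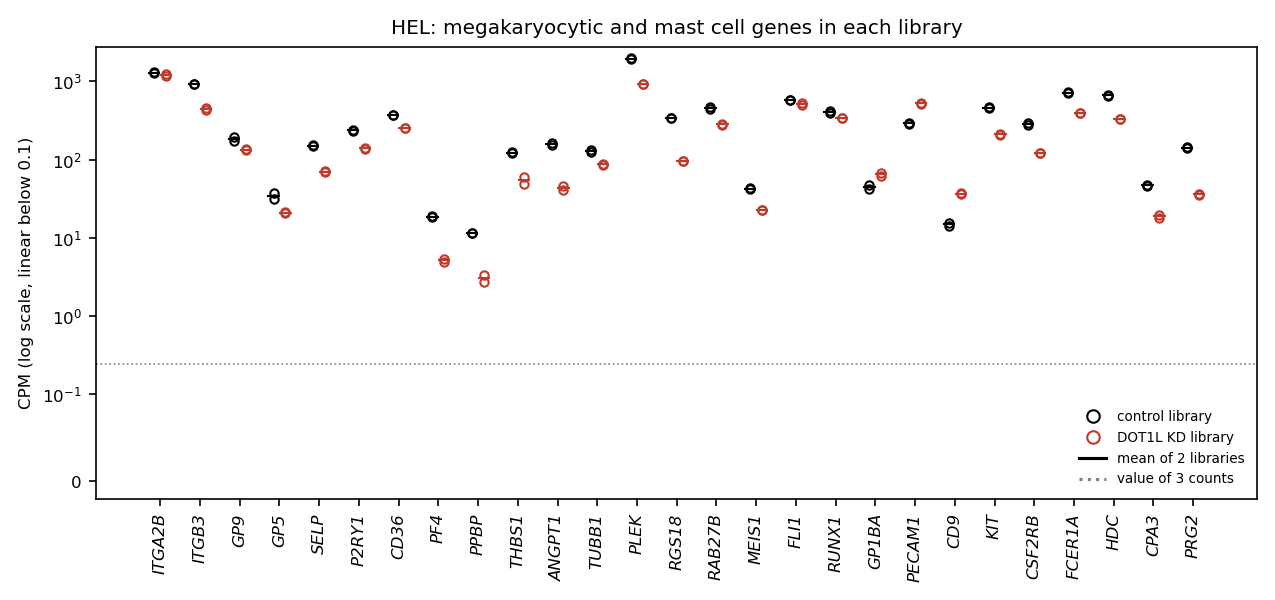
CPM (log scale, linear below 0.1) of 21 megakaryocytic genes and 6 genes of mast cells and their relatives, with 1 circle per library, black for control and red for DOT1L KD, and bars for the mean of 2 libraries. Most pairs step down from black to red, while GP1BA, PECAM1 and CD9 step up and ITGA2B is nearly level.

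Several genes of mast cells and basophils that HEL expresses fell, and so did some cytokine receptor genes. Of 44 listed genes of granulocytes, monocytes and mast cells only 21 were tested, and 10 of them were lower and 3 higher, against 28.0% and 27.0% of all tested genes. HDC, which makes histamine, went from 657 and 661 to 328 and 334 CPM (-0.99 ± 0.03). FCER1A, the alpha chain of the IgE receptor, went from 707 and 731 to 396 and 397 CPM (-0.86 ± 0.03), and the mast cell protease gene CPA3 from 45.5 and 47.9 to 17.7 and 19.8 CPM (-1.32 ± 0.08). KIT, the stem cell factor receptor, was at 454 and 466 CPM in the controls and 208 and 213 CPM in the KD (-1.13 ± 0.03, adjusted p = 1.12e-33). CSF2RB, the shared beta chain of the IL-3, IL-5 and GM-CSF receptors, went from 289 and 274 to 122 and 121 CPM (-1.21 ± 0.04). SPI1, the myeloid factor PU.1, fell as well (-0.30 ± 0.06). The 3 that rose were CD33 (0.56 ± 0.05) and the integrin chains ITGAM (1.07) and ITGAX (1.53), the last 2 from low levels. LYZ did not pass (0.02 ± 0.07). In these bulk libraries fewer cells of a kind and less RNA per cell cannot be told apart.

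Of the other cell markers, 10 were tested and 3 passed (30%), against 55.0% of all tested genes. NKG7 of cytotoxic lymphocytes was higher (0.399 and 0.238 against 1.51 and 1.87 CPM), and PDGFRB (5.27 and 3.89 against 2.94 and 1.14 CPM) and CDH5 (3.83 and 3.65 against 2.47 and 1.46 CPM) were lower. With DESeq2 the calls of PDGFRB and CDH5 were lost (adjusted p = 0.16 and 0.0741). Their part in the other results was not tested.

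Of 29 tested genes of cytokine signalling through JAK and STAT proteins 14 were lower and 5 higher, against 28.0% and 27.0% of all tested genes, with a median of -0.13. With upper-quartile scaling 11 were lower and 9 higher. JAK2, the kinase of the erythropoietin and thrombopoietin receptors, went from 925 and 934 to 606 and 589 CPM (-0.64 ± 0.03, adjusted p = 8.67e-26). STAT5B fell (-0.31 ± 0.03), and STAT5A did not pass (0.01 ± 0.03). JAK1 rose (0.23 ± 0.03). Of the 12 inhibitors 6 fell, among them the phosphatase gene PTPN6 (-0.45) and SOCS2 (-0.52), and the adaptor gene SH2B3 rose (0.59 ± 0.04). The target PIM1 fell as given above, while PIM2 (0.18) and ID1 (0.56) rose.

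In the BCL2 family 5 of 14 tested genes were higher and 5 lower, against 27.0% and 28.0% of all tested genes. Of the 5 survival genes 4 were called lower, of which BCL2 held under every alternative. BCL2 went from 20.3 and 20.1 to 7.32 and 7.73 CPM (-1.42 ± 0.12, adjusted p = 1.87e-14), and BCL2A1, at a low level, differed by -1.46 ± 0.40, a call lost with DESeq2 (adjusted p = 0.0622). MCL1 differed by -0.12 and BCL2L1 by -0.09, and both calls were lost with upper-quartile scaling (adjusted p = 0.326 and 0.776), that of BCL2L1 also with DESeq2 (adjusted p = 0.092). Of 9 effectors and BH3-only genes 5 were called higher, BNIP3 (0.41), BAX (0.32), PMAIP1 (0.31), BCL2L11 (0.19) and BID (0.14). The call of BID was lost with DESeq2 (adjusted p = 0.293) and with RLE scaling (adjusted p = 0.0535). BAK1 fell (-0.89 ± 0.17).

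MYC and cell cycle genes moved in both directions. MYC was at 441 and 430 CPM in the controls and 382 and 374 CPM in the KD (-0.20 ± 0.03). Among its network MXD3 (0.94) and MXI1 (0.51), antagonists of MYC, rose, and MXD1 (-0.46), also an antagonist, fell. CDK6, the G1 kinase of blood progenitors, went from 178 and 168 to 121 and 119 CPM (-0.53 ± 0.04), and CCND3, the cyclin D of red cell precursors, from 596 and 577 to 760 and 773 CPM (0.39 ± 0.03). The inhibitors CDKN1A (0.56) and CDKN2C (0.44) rose and CDKN2D (-0.63) fell. Of 46 replication and mitosis genes 16 were higher and 17 lower, against 27.0% and 28.0% of all tested genes. The largest change of that list was in ECT2, a factor of cytokinesis (0.92 ± 0.05). GINS1, MCM5 and MCM6 of the replicative helicase fell by 0.54, 0.41 and 0.38 on the log2 scale.

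Of 20 glycolytic genes 14 were higher and 4 lower, against 27.0% and 28.0% of all tested genes, with a median of 0.25. SLC2A1, the glucose transporter of red cells, went from 453 and 454 to 864 and 869 CPM (0.93 ± 0.03, adjusted p = 9.87e-33), PGK1 from 875 and 910 to 1350 and 1355 CPM (0.60 ± 0.03) and PKM from 1738 and 1705 to 2380 and 2362 CPM (0.46 ± 0.03). LDHA, the lactate dehydrogenase subunit of glycolytic tissue, was the largest exception, at 1549 and 1551 against 1127 and 1130 CPM (-0.46 ± 0.03), and LDHB rose (0.20 ± 0.03). Of 20 sterol synthesis enzymes 11 were lower and 1 higher, against 28.0% and 27.0% of all tested genes. CYP51A1, which removes a methyl group from lanosterol, went from 120 and 118 to 81.4 and 80.5 CPM (-0.56 ± 0.05), and SQLE (-0.44) and SC5D (-0.55) fell too. In the ATF4 amino acid response 6 of 8 synthesis genes fell and none rose, with PHGDH, the first enzyme of serine synthesis, going from 81.1 and 82.5 to 42.7 and 41.6 CPM (-0.95 ± 0.06). ATF4 itself rose (0.23 ± 0.04), as did the transporter gene SLC7A5 (0.54 ± 0.04), so the list did not move as a whole.

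Genes of ribosomes and of the respiratory chain were more often higher than lower. Of 77 cytosolic ribosomal protein genes 48 were higher and 6 lower (median 0.14), against 27.0% and 28.0% of all tested genes, but 29 were higher and 23 lower once the trend with exonic length was removed. Likewise 45 of 76 respiratory chain genes were higher and 11 lower (median 0.18), and 27 and 15 without that trend. Of 76 mitochondrial ribosomal protein genes 35 were higher and 10 lower (median 0.17), 21 and 17 without it, and 19 and 7 with DESeq2. Single genes stood apart from their lists: RPL27A fell (-0.77 ± 0.03), as did MRPS10 (-0.86 ± 0.07), and RPS12 rose (0.50 ± 0.03).

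The partners of DOT1L moved in both directions and by little. MLLT1 rose (93.0 and 84.6 to 114 and 121 CPM, 0.40 ± 0.05), MLLT3 fell (576 and 597 to 501 and 485 CPM, -0.25 ± 0.03), and MLLT10 differed by -0.13 ± 0.04, a call lost with DESeq2 (adjusted p = 0.0659) and with upper-quartile scaling (adjusted p = 0.205). In the super elongation complex, which releases paused RNA polymerase, CCNT1 (-0.53), EAF2 (-0.69) and EAF1 (-0.41) fell and CDK9 rose (0.37 ± 0.07). The H2B ubiquitin ligase genes RNF20 and RNF40 did not pass (0.05 ± 0.06 and 0.03 ± 0.06), and of the PAF1 complex LEO1 (-0.31) and CTR9 (-0.29) fell. Of 23 genes of TFIID and the general factors 13 were lower and 3 higher, against 28.0% and 27.0% of all tested genes, with a median of -0.17. DESeq2 called 5 lower and 1 higher, and upper-quartile scaling gave 9 lower and 6 higher. GTF2E2, the beta subunit of TFIIE, went from 61.3 and 63.1 to 33.1 and 29.5 CPM (-0.99 ± 0.07), and TAF1 fell (-0.38 ± 0.05). TBP was called lower (-0.28 ± 0.09), but not with DESeq2 (adjusted p = 0.0858). TAF7, a TFIID subunit, went the other way, from 34.4 and 37.9 to 67.7 and 72.5 CPM (0.95 ± 0.06, adjusted p = 1.52e-18). Among 27 other histone methyltransferase genes 9 were higher and 10 lower, against 27.0% and 28.0% of all tested genes. DESeq2 called 5 higher and 5 lower, and upper-quartile scaling gave 12 higher and 6 lower. NSD3 (-0.64) and SUZ12 (-0.41) fell, and KMT5A (0.61), EZH2 (0.37) and KMT2A (0.26) rose.

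HOX genes, which depend on DOT1L in leukaemias with MLL fusions, were mostly low or level. Of 20 tested HOX, MEIS and PBX genes 3 were higher and 7 lower, against 27.0% and 28.0% of all tested genes. DESeq2 called 0 higher and 2 lower. Of the 5 tested MEIS and PBX genes 4 were lower, the lowest at -1.15, and 1 was higher. HOXA9 stayed at or below 0.32 CPM and was not tested. HOXA10 was at 30.0 and 29.4 CPM in the controls and 27.2 and 24.7 CPM in the KD (-0.20 ± 0.08) and HOXA11 differed by -0.48 ± 0.14, calls that were lost with DESeq2 (adjusted p = 0.25 and 0.0699). HOXB9, the most abundant at 127 and 123 CPM, did not pass (-0.00 ± 0.04). MEIS1 and PBX3, cofactors of HOX proteins, fell, MEIS1 from 42.1 and 43.1 to 22.8 and 22.6 CPM (-0.91 ± 0.08) and PBX3 from 36.8 and 33.0 to 26.6 and 25.4 CPM (-0.43 ± 0.08).

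Interferon-stimulated and immediate early genes were mixed. Of 26 interferon-stimulated genes 13 were lower and 7 higher, against 28.0% and 27.0% of all tested genes, and DESeq2 called 10 lower and 4 higher. USP18 (-0.76), IFI44 (-0.60) and IFIT2 (-0.48) fell, and BST2 (3.04 and 4.13 to 9.62 and 11.1 CPM, 1.53 ± 0.18) and RSAD2 (0.77) rose. Among immediate early genes BTG2, an antiproliferative gene, went from 92.8 and 92.7 to 246 and 236 CPM (1.38 ± 0.04, adjusted p = 2.61e-33). JUN (0.86) and FOSL2 (1.41) rose, and JUND (-0.69) and EGR1 (-0.76) fell. Among semaphorins and their receptors, besides SEMA3C, the receptor gene PLXND1 fell from 184 and 176 to 101 and 103 CPM (-0.82 ± 0.04), SEMA3G fell (-0.86 ± 0.17), and PLXNB3 (0.75) and PLXNC1 (0.65) rose. Of 74 replication-dependent histone genes, whose messages mostly lack a poly(A) tail, 14 were tested and 7 were higher and 1 lower, against 27.0% and 28.0% of all tested genes. DESeq2 called 2 higher and 1 lower, and 3 to 6 were higher when 1 library was left out. The highest log2 fold change was in HIST3H2A (1.41).

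**Figure D4:**
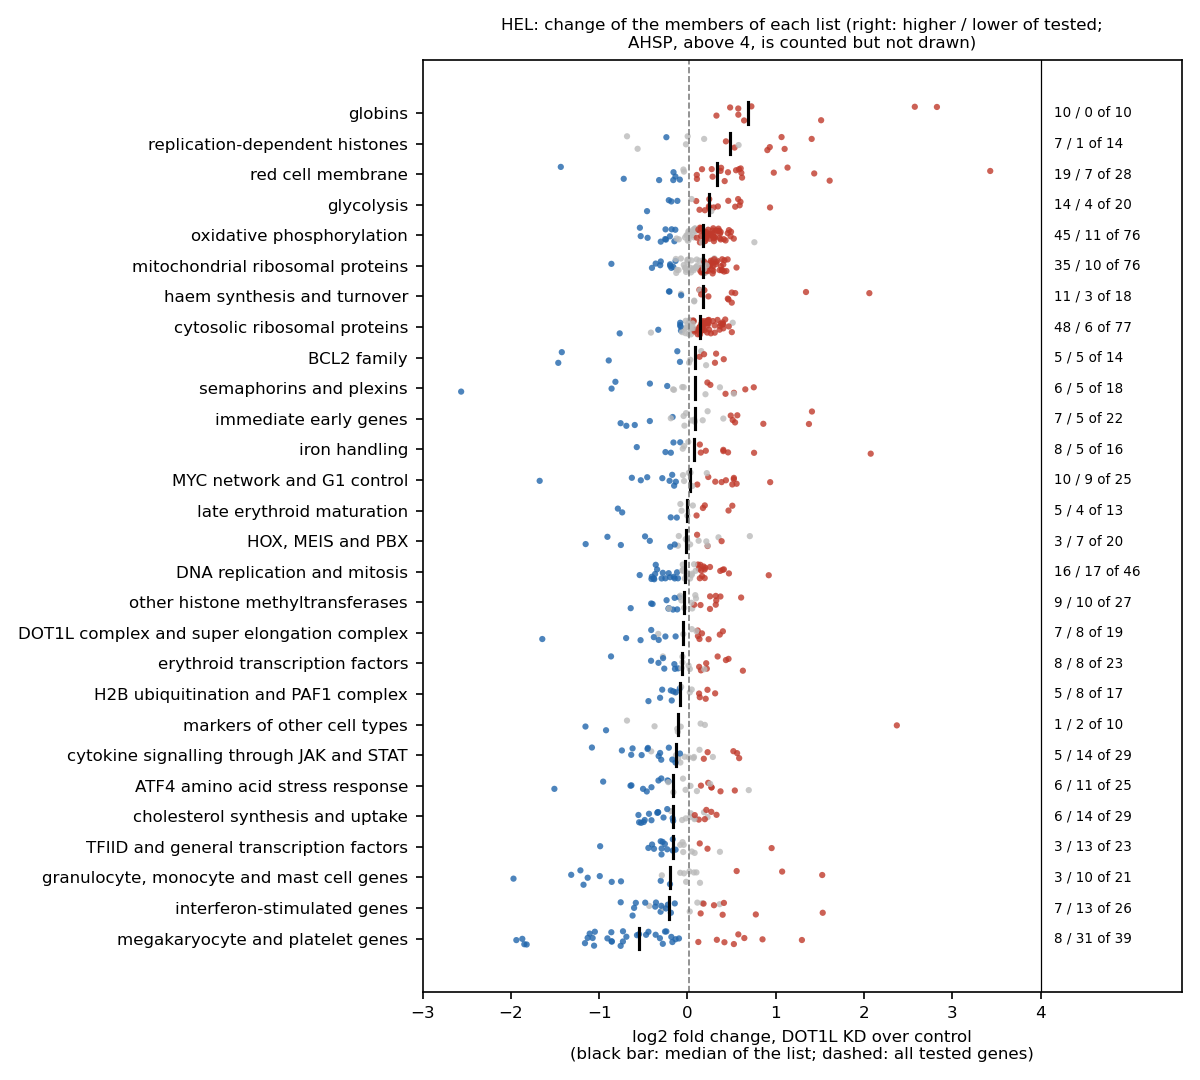
Each row is a gene list and each point a tested member, placed by its log2 fold change, KD over control; red and blue points passed an adjusted p of 0.05, black bars are list medians and the dashed line is the median of all tested genes. Globins have the highest median (0.68) and megakaryocyte and platelet genes the lowest (-0.55), and the counts on the right give higher and lower members of those tested.

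Some genes appeared from or sank to the counting floor. By the rule of at most 3 counts in each library of a group and a mean of at least 1 CPM in the other, 24 genes were at the floor in the controls only and 4 in the KD only. The ratios and 95% counting intervals below come from the same counts that chose these genes. They are therefore a description and no test, and the ratios may be too large. UCA1, a long noncoding RNA, had 3 and 113 counts, a ratio of 38.0 (12.7 to 187). TMEM92 had 2 and 62 counts, a ratio of 31.3 (8.31 to 264), and LOC254028 5 and 70 counts, a ratio of 14.1 (5.78 to 44.9). In the other direction PHEX, a peptidase of bone, had 70 counts in the controls and 3 in the KD, a ratio of 23.1 (7.59 to 115). EFNB3, an ephrin, had 32 and 6 counts, the noncoding MIAT 28 and 5, and S100P, which failed the filter on low counts, 27 and 5.

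Neighbouring genes that changed together by at least 0.5 on the log2 scale formed 10 runs of 4 or 5 tested genes, which spanned 28.3 to 2728 kb. Of the 12635 tested genes, 1716 were called with a change of 0.5 to 1 in size and 738 with at least 1. How many runs such calls would form if neighbours were unrelated was not tested. On chromosome 16 the run was the alpha globin cluster, HBZ, HBA2, HBA1 and HBQ1 (152855 to 181179), with a median of 2.04. On chromosome 4 it was the chemokine cluster, PF4, PPBP, CXCL3 and CXCL2 (73980825 to 74099280), with a median of -1.44. On chromosome 17 TNRC6C-AS1, TMC6, TMC8 and C17orf99 (78107401 to 78166283) rose. There TMC8 went from 41.7 and 38.7 to 112 and 115 CPM (1.50 ± 0.05) and TMC6 from 76.1 and 64.0 to 160 and 164 CPM (1.21 ± 0.05), and C17orf99 was near 0 in the controls (0.399 and 0 CPM) and at 8.11 and 7.32 CPM in the KD. On chromosome 1 the guanylate-binding protein genes GBP1, GBP2, GBP4 and GBP5 (89052321 to 89272861) fell, GBP4 from 189 and 190 to 113 and 97.3 CPM (-0.85 ± 0.05). On chromosome 10 a run of 5 genes from FAM160B1 to EMX2 fell, in which PDZD8 went from 601 and 593 to 249 and 246 CPM (-1.27 ± 0.03). With DESeq2 the calls of CXCL3, CXCL2, GBP5, EMX2 and VSIG2 were lost (adjusted p = 0.101, 0.0564, 0.204, 0.0773 and 0.229). Other runs held JAZF1, CREB5, CPVL and CHN2 (chromosome 7, lower), CCPG1 to RFX7 (chromosome 15, lower), BCR to GUSBP11 (chromosome 22, higher) and SIAE to VSIG2 (chromosome 11, higher). Whether counting used strand is not given in the sources used here, so overlapping and antisense genes within a run cannot be told apart by their reads.

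Size and level of a gene went along with its change, described here across genes, which are not independent replicates. The 2502 genes of the lowest quintile by mean CPM had a median log2 fold change of 0.16 and the highest quintile -0.05, and the share past the threshold rose from 32.0% to 74.9%, with more counts. Of the 426 genes higher by at least 1 on the log2 scale, 310 lay in the lowest quintile, where 127 of the 312 genes lower by as much lay. Short genes leaned up. The median was 0.09 in the lowest quintile of exonic length and -0.05 in the highest, and 0.12 and -0.06 in the quintiles of gene span. Of the shortest quintile by span, 33.7% were higher and 14.8% lower, and of the longest 23.9% and 36.3%. By chromosome, the median was highest on chromosome 19 (0.12, 928 genes) and lowest on chromosome 13 (-0.12, 222 genes).

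**Figure D5:**
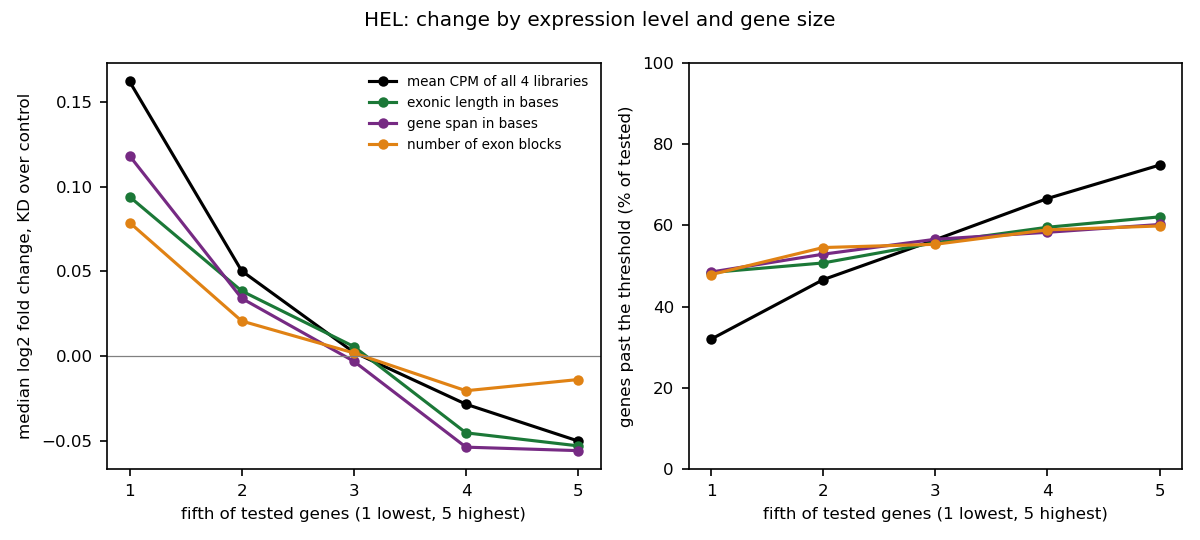
Median log2 fold change, KD over control (left), and share of genes past an adjusted p of 0.05 in percent (right), for quintiles of the tested genes by mean CPM, exonic length, gene span and number of exon blocks. Medians run from 0.16 to -0.05 with level, and the called share from 32.0% to 74.9%.

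The response of HEL differed from that of K562, an erythroleukaemia line studied with DOT1L knockout, in many genes. In a joint fit of 9 libraries, with 2 distinct control and 3 knockout libraries of K562, the interaction of cell line and depletion passed for 5980 of 15367 genes (38.9%), 3039 with a higher value in HEL and 2941 with a lower one, or 4172 and 2284 once the trend with exonic length was removed. Cell line, knockdown against knockout and read against fragment counting cannot be told apart in this test. The mRNA of DOT1L was -0.53 in K562 on the log2 scale. Of the 10 members of the globin list, 8 were called higher in both lines. The log2 fold change was larger in HEL for HBZ (1.44 in K562, interaction 1.40, adjusted p = 9.3e-08) and HBA2 (1.05 in K562, interaction 1.54). Both started lower in HEL. Mean HBZ went from 4.06 to 28.8 CPM in HEL and from 1046 to 2804 CPM in K562. Mean HBA2 went from 26.8 to 160 CPM in HEL and from 138 to 282 CPM in K562. Of the 39 megakaryocyte and platelet genes, 22 had an interaction past the threshold, and 15 were called in opposite directions in the lines. Among all 12635 genes tested in HEL, 5755 had an interaction past the threshold. Of the same 12635, 1717 were called in both lines in opposite directions and 2257 in the same direction. RGS18 was lower in HEL and 2.70 in K562, where its control level was only 0.167 CPM (interaction -4.51, adjusted p = 1.14e-08), and ANGPT1 was -0.40 in K562 (interaction -1.46). GLUL (-0.75 in K562, interaction -0.09) and VIM (-1.04 in K562, interaction -0.15) were lower in both, with no interaction past the threshold (adjusted p = 0.294 and 0.0674).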

How the data were processed

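RNA-seq was measured in 2 control and 2 DOT1L KD libraries of HEL. Poly(A) RNA was captured and libraries were made with a dUTP method that keeps strand, per the labels' protocols. The authors deposited whole-number read counts per gene, 28131 genes in each library. The submitters' processing notes list fastp 0.13.1, HISAT2 2.1.0, featureCounts 1.6.1, Bowtie2 2.3.4.1 and deepTools, and the builds hg38 and hg19, without saying which served this table. The gene coordinates in the deposited table were matched to the RefSeq table of GRCh38.p14, and its exonic lengths were used as given. Whether counting used strand is not given in the sources used here.

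From these counts, genes were filtered with filterByExpr (minimum count 10, minimum total 15), scaled by TMM and tested with edgeR 4.0.16 (R 4.3.3), by the quasi-likelihood test with Benjamini-Hochberg adjustment over all 12635 genes tested and a threshold of 0.05. CPM are TMM-scaled, values per group are those of the 2 libraries, and values after ± are standard errors of the log2 fold change. Counts were also simulated for this comparison, with the same spread for every gene and few changed genes, none of them near the counting floor. With 12572 genes tested, edgeR called 36 of 50 genes changed 1.3-fold and 45 of 50 changed 1.5-fold. It called 50 of 50 changed 2-fold, 50 of 50 changed 4-fold and 6 unchanged genes. DESeq2 called 23, 40, 46 and 50 of 50 at these sizes and 0 unchanged genes. The deposited counts do not share these settings, so their rates may differ. The interaction with K562 DOT1L knockout was tested in a joint fit of 9 libraries, in which 1 of the K562 control columns, identical to another, was counted once.

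Gene lists were described by counts and medians, with no test. The members and lists were chosen with earlier results of these data known. Named genes were the target, the 12 largest changes in each direction among called genes with a mean of at least 5 CPM and no overlap, the 5 largest changes in CPM, list members, genes at the counting floor of 3 counts and runs of 4 or more neighbours. Of list members, those named are a part, and the rest stand in the counts. Some named genes are not reported here. For 6 listed older symbols the table holds the newer name, which was used. Quintiles of level were made from the mean of all 4 libraries, where the plan named the control level, since a split by 1 group would follow the change. Alternatives were DESeq2 1.42.0, other scalings and filters, a replicate block, removal of the trend with exonic length and leaving out each library.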

Additional observations from a re-analysis of the deposited data

Results flagged for a closer look

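The difference between the HEL and K562 responses was past the threshold for 5980 genes in edgeR's joint fit. Among the 34 genes of largest change in HEL, 23 had an interaction past the threshold, and 9 of these were called in both lines in opposite directions. The 34 were chosen by their HEL change, which is part of the interaction, so these counts are no test. Among all 12635 genes tested in HEL, 5755 had an interaction past the threshold and 1717 were called in both lines in opposite directions. The values below, for those of the 23 that are reported here, are the HEL minus the K562 log2 fold change. The lines also differ in knockdown against knockout and in the unit counted.

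Of genes that rose in HEL, the interaction was positive for ESPN (2.58), AMPD3 (2.51), STMN3 (1.69), HBA2 (1.54), HBZ (1.40), LOC102724908 (1.20), ENO1 (0.78), SFXN3 (0.76), GAPDH (0.75) and TXNIP (0.31). It was negative for PLEKHA6 (-3.03) and SYP (-0.72), which rose by more in K562 on the log2 scale. PLEKHA6 was barely counted in the K562 controls, with a mean of 0.0480 CPM against 1.82 CPM in the knockout.

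Of genes that fell in HEL, the interaction was lowest for PRG2 (-5.47) and SEMA3C (-4.10). It was -2.90 for ARID5B, -2.48 for both TGM5 and SOSTDC1, -2.40 for CITED1, -1.46 for ANGPT1, -1.43 for MITF, -0.78 for PIM1 and -0.57 for RNR2. SEMA3C and TGM5 were barely counted in K562, with mean control levels of 0.0957 and 0.0714 CPM.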

How the results depend on the processing

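Against 6951 genes past the threshold with edgeR, DESeq2 called 4561, and the other alternatives 5805 to 7180, with 5884 to 6207 when 1 library was left out. Of those with a log2 fold change of at least 1 in size (738), a minimum count of 50 left 384 (179 higher, 205 lower), where 10615 genes were tested, and leaving out 1 library gave 706 to 753. Interaction calls (5980) were 4887 to 4991 with 1 HEL library left out. With the trend with exonic length removed, the difference in median log2 fold change between the lowest and the highest quintile went from 0.212 to 0.187 for level, from 0.147 to -0.00859 for exonic length, from 0.174 to 0.0685 for gene span and from 0.0971 to 0.00797 for exon blocks. The value for exonic length follows from the removal itself and tests nothing. The median of all genes moved by at most 0.0734, with upper-quartile scaling. CPOX had a log2 fold change of 0.0015 with that scaling. Same-numbered libraries did not deviate together (correlation -0.0026). Replicates differed by little more than counting noise, so this does not show whether they were made in pairs. With the replicate block edgeR called 6903 genes, 734 of them with a log2 fold change of at least 1 in size, and 6753 with the block and the length trend removed together. Medians changed sign under at least 1 alternative for the lists of replication and mitosis, DOT1L and super elongation complex, HOX, MYC, erythroid factors, immediate early, late erythroid, other methyltransferases and semaphorins. The alternative of TATAAA anywhere in the promoter was not run, since promoter classes were void. Low counts limit genes near the floor of 3 counts.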
